A study of Homo sapiens with 12 samples.

Results

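AXL and 9 genes grouped with it as marks of the dedifferentiated, AXL-high state of melanoma were followed in A375 cells, a human melanoma line that carries an activated BRAF, after inhibition of the kinase CDC7 and of the BRPF chromatin readers. The 10 genes are AXL, EGFR, PDGFRB, NGFR, WNT5A, NT5E, FOSL1, JUN, SOX9 and ZEB1. They were chosen by name, with earlier results of these data known, and each was found as an entry of the same name among the 26475 entries of the expected-count table. All 10 were among the 15353 genes tested.

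The groups were cells given OF1 and XL413 together, XL413 alone, OF1 alone, or the vehicle DMSO, with 3 libraries in each. XL413, an inhibitor of the replication kinase CDC7, was given at 1 µM. OF1, an inhibitor of the bromodomains of BRPF1, BRPF2 and BRPF3, was also given at 1 µM, and the combination held 1 µM of each. Every group was treated for 24 h, and all share a single cell line, medium and library protocol. The labels do not tell if the 3 libraries of a group derive from different cultures, and p-values here reflect the scatter of the libraries, which may be technical. In bulk libraries, fewer cells of a type and less RNA per cell cannot be told apart.

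Melanoma cells move between a melanocytic state, driven by the transcription factor MITF, and dedifferentiated states with little MITF activity and high AXL, which are known for invasiveness and for tolerance of BRAF and MEK inhibitors. AXL, EGFR and PDGFRB are receptor tyrosine kinases that keep growth signalling running in such cells, and NGFR, the low-affinity neurotrophin receptor, marks the neural-crest-like form. FOSL1 and JUN pair in the AP-1 transcription factor, which drives much of the invasive programme, while ZEB1 and SOX9 are transcription factors that rise as the melanocytic programme is lost.

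AXL had the widest range of the 10 genes, with a highest group mean 1.295 times the lowest, and SOX9 followed with 1.241 times. AXL fell in cells given XL413, to 365 ± 17.7 CPM against 473 ± 8.54 CPM in DMSO cells (SD, n = 3 each), and in the combination, to 387 ± 18.4 CPM, where CPM is the standard count scaled to library size, here with TMM factors. JUN, the AP-1 subunit, fell by a smaller amount in the combination, to 64.8 ± 3.87 CPM against 73.3 ± 1.85 CPM in DMSO cells. No member passed the test in OF1 cells against DMSO, and no member passed as higher than DMSO in any treatment. EGFR, WNT5A, NT5E, PDGFRB and SOX9 did not pass in any of the 6 comparisons between pairs of groups in the fit to all 12 libraries.

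The sequences in front of the AXL, JUN and ZEB1 transcription starts are shown because these are the members that differed among the 4 groups in a single test of any difference, although for JUN and ZEB1 that call depended on the libraries used. Each is a RefSeq window on GRCh38.p14, from 250 bases before the start to 50 after it, read 5′ to 3′ on the gene's strand. Capitals mark matches to the AP-1 letters TGANTCA, to the CRE-type letters TGACNTCA, which JUN with ATF2 is known to bind, and to the ZEB E-box CAGGTG or its reverse complement. The AXL window is chr19:41218973-41219272 on the plus strand, the JUN window chr1:58783998-58784297 on the minus strand, and the ZEB1 window chr10:31318966-31319265 on the plus strand, which is 1 of several starts of that gene.
AXL: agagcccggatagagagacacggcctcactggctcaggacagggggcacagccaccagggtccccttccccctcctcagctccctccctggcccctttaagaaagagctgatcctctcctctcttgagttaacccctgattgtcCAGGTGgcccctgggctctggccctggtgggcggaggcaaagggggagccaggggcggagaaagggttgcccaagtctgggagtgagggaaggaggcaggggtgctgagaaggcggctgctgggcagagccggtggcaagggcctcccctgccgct
JUN: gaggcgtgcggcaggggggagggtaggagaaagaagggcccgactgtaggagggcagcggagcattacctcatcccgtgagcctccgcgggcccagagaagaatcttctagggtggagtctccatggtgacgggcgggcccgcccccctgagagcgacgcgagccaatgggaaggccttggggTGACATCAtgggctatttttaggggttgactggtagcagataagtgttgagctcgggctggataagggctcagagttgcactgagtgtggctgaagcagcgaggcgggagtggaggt
ZEB1: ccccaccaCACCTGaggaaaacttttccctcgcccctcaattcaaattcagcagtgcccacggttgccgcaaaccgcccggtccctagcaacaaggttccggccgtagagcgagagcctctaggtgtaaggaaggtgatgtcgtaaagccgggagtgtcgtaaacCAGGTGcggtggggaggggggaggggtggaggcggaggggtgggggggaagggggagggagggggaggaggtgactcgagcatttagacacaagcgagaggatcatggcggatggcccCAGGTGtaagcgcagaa
The ZEB1 window shown is the one of the gene's 7 windows with the most matches. Of the others 1 held a single E-box and 5 none, and the second AXL window held none. In AXL the capitals are a single ZEB E-box 106 bases before the start, in JUN a single CRE-type site 67 bases before it, and in ZEB1 E-boxes 242 and 85 bases before the start and 33 bases after it. These are matches of letters, on either strand, and binding was not measured. Over all 35116 windows of this length, 7.71% held the AP-1 letters, 7.72% the CRE-type letters and 20.6% the ZEB E-box. Windows were found for 7 of the 10 genes, 16 in all. The AP-1 letters were in 1 of the 16, of EGFR, the CRE-type letters in 1, of JUN, and the ZEB E-box in 4, of AXL, WNT5A and ZEB1. GGAATG, the letters of TEAD factors, was in 3 of the 16, of AXL, EGFR and ZEB1 (14% of all windows). CACGTG was in none of the members' windows (7.26%). The GC box GGGCGG was in 11 of the 16, with at least 1 in each of the 7 genes (45% of all windows). The shares are of single windows, and a gene with several windows has more room for a match. NGFR, SOX9 and FOSL1 are named only.

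Per kilobase of exon in GENCODE v29, mean levels over the 12 libraries ran in the order FOSL1 (181 CPM per kb), AXL (85.3), JUN (19.6), NT5E (18.0), NGFR (12.8), WNT5A (6.90), ZEB1 (6.27), EGFR (4.01), SOX9 (2.33) and PDGFRB (2.12). On this scale FOSL1 and AXL stood well above the rest. JUN and NT5E changed places between groups, with NT5E at 18.5 CPM per kb and JUN at 18.3 in the combination, against 17.2 and 20.7 in DMSO cells. The coefficient of variation within groups was 3.04% for FOSL1, 3.78% for JUN, 3.89% for EGFR, 4% for AXL, 4.03% for NT5E, 4.09% for ZEB1, 5.22% for NGFR, 6.91% for WNT5A, 8.78% for SOX9 and 9.77% for PDGFRB. SOX9 had as few as 259 and PDGFRB as few as 310 expected counts in a library, while AXL never had fewer than 10908.

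Library totals were 30499559 to 36062138 expected counts. The melanocyte lineage genes SOX10 and MITF were at 318 to 386 CPM and 32.8 to 44.4 CPM. The 13 genes listed for melanoma identity summed to 1262 to 1354 CPM over the libraries. The pigment genes were near the bottom of the scale, with PMEL at no more than 1.04 CPM, MLANA at no more than 0.24 CPM and TYR at 0 in every library. Combination replicates 2 and 3 stood apart from the other libraries, at -33.4 and -31.5 on the first principal component, against -6.99 in combination replicate 1. They had the least of 2 marker sets of other cell types. The 34 skeletal muscle fibre genes, of which none was at 0 in all libraries, summed to 44.1 to 137 CPM in the combination, 180 to 386 CPM with XL413, 176 to 399 CPM with OF1 and 123 to 319 CPM in DMSO cells. The 12 fibroblast genes, likewise all detected, summed to 178 to 325 CPM in the combination, 426 to 481 CPM with XL413, 422 to 470 CPM with OF1 and 388 to 469 CPM in DMSO cells. The 10 keratinocyte genes summed to 96.4 to 109 CPM in the combination, 130.5 to 136 CPM with XL413, 111 to 134 CPM with OF1 and 108 to 130 CPM in DMSO cells, with KRT1 at 0, and KRT5, KRT14 and SFN fell in the combination against DMSO. KRT14 and SFN also fell with OF1 alone against DMSO. The 8 leukocyte genes summed to 47.2 to 51.3 CPM over all libraries, with PTPRC and CD3E under 0.1 CPM. The part of the fibroblast and keratinocyte lists in the values of the 10 genes was not tested. For the muscle list, fits with its mean log2 CPM as a covariate are quoted below. That mean was 0.613, -0.779 and -0.234 in the combination libraries and at least 0.614, in DMSO replicate 1, in every other library. The covariate thus overlaps with the combination group, and a call lost with it does not tell why it was lost. Fits with combination replicate 1 as the only library of its group are quoted for the results on the combination that they changed most. Those fits assume that the lone library varies like the other groups.

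**Figure D1:**
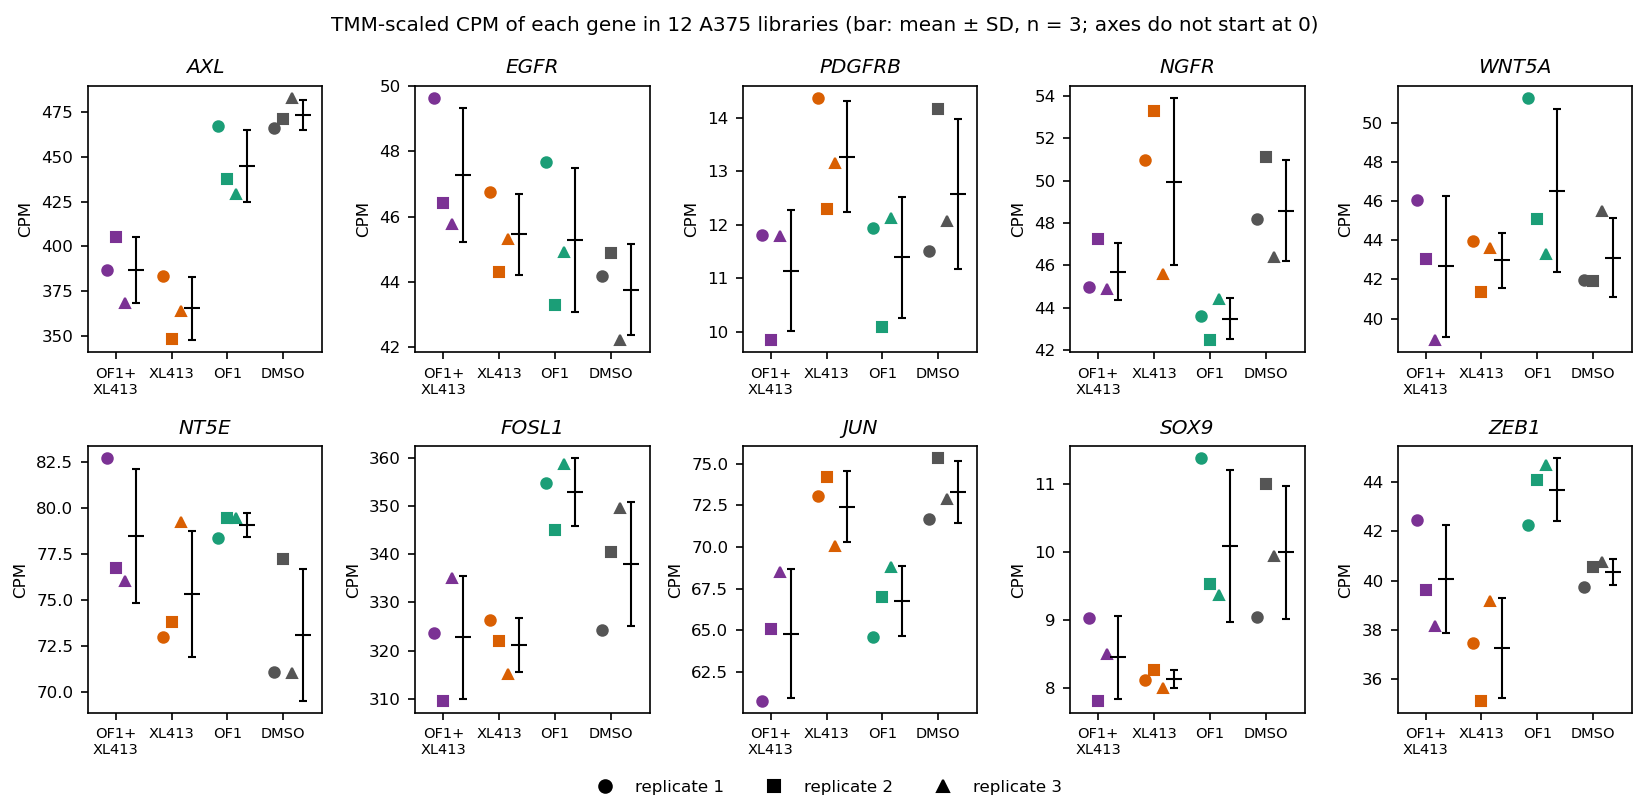
CPM of each of the 10 genes (vertical axes, not starting at 0) in the 12 libraries, by treatment, with marker shape for replicate number and bars for mean ± SD of 3 libraries. All XL413 and combination libraries lay below all DMSO and OF1 libraries for AXL, at 348 to 405 CPM against 430 to 483 CPM.

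AXL (chromosome 19, 41219223 to 41261766 on GRCh38.p14), a receptor tyrosine kinase of the TAM family activated by GAS6, had 387, 405 and 369 CPM in the combination. It had 384, 348 and 364 CPM with XL413, 467, 438 and 430 CPM with OF1, and 466, 471 and 483 CPM in DMSO cells. The 6 libraries with XL413 were the 6 lowest, and OF1 overlapped DMSO through its replicate 1 alone. XL413 put AXL at 0.772 times its DMSO level, a log2 fold change of -0.37 ± 0.04 (SE, edgeR quasi-likelihood adjusted p = 0.000482), and it ranked 14 by p among the 15353 genes. In the combination the change was -0.29 ± 0.04 against DMSO (adjusted p = 0.000894), or 0.818 times. OF1 alone gave -0.09 ± 0.04 (adjusted p = 0.376).

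The XL413 change in AXL could be measured again in libraries that the comparison with DMSO did not use. The combination against OF1 alone gave -0.20 ± 0.04 (adjusted p = 0.0191). This call did not hold with combination replicate 1 alone (adjusted p = 0.149), with the mean muscle gene level as a covariate (-0.23, adjusted p = 0.628), in a fit to these 2 groups alone (adjusted p = 0.0914), or without OF1 replicate 1 (-0.16, adjusted p = 0.0735) or without OF1 replicate 2 (-0.21, adjusted p = 0.0535). XL413 against OF1 gave -0.28 ± 0.04 (adjusted p = 0.00161). The calls for XL413 against DMSO, the combination against DMSO and XL413 against OF1 held under every alternative tried. Against DMSO, the XL413 value stayed between -0.41 and -0.34 when any 1 of the 12 libraries was left out. The combination did not pass against XL413 (0.08 ± 0.04, adjusted p = 0.37), with a 95% interval of -0.01 to 0.18.

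The 2 other receptor tyrosine kinases did not pass. EGFR (chromosome 7, 55019017 to 55211628), the receptor for EGF and TGFA, had 47.3 ± 2.06 CPM in the combination, 45.5 ± 1.24 CPM with XL413, 45.3 ± 2.20 CPM with OF1 and 43.8 ± 1.38 CPM in DMSO cells. The 3 combination libraries all lay above the 3 DMSO libraries, but the log2 fold change was 0.11 ± 0.05 (adjusted p = 0.145), with a 95% interval of 0.01 to 0.21. It was 0.18 (adjusted p = 0.105) with combination replicate 1 alone and 0.07 without that replicate. PDGFRB (chromosome 5, 150113839 to 150155845), a receptor for PDGF-B and PDGF-D, had 11.1 ± 1.13 CPM in the combination, 13.3 ± 1.04 CPM with XL413, 11.4 ± 1.13 CPM with OF1 and 12.6 ± 1.40 CPM in DMSO cells. Its combination libraries all lay below those with XL413 alone (-0.26 ± 0.10, adjusted p = 0.201, and -0.17 with combination replicate 1 alone), and the groups otherwise overlapped except for XL413 against OF1 (0.22, adjusted p = 0.206). PDGFRB is also a gene of fibroblasts and pericytes. The fibroblast genes were lowest in the combination, as given above. Of 11 tested genes listed for pericytes and smooth muscle, the combination against XL413 called 3 lower, ACTA2, TAGLN and DES, and 0 higher. Of all tested genes 3.41% passed there. The part of either list in the PDGFRB values was not tested. EGFR shares 186 exonic bases with the antisense gene EGFR-AS1, and whether counting used strand is not given in the sources used here. On the opposite strand, NGFR shares 924 exonic bases with AC015656.1 and 202 with AC006487.1, and AXL 67 with AC011510.1. Unlike EGFR-AS1, these genes have no expected counts of their own here.

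NGFR (chromosome 17, 49495293 to 49515008) had 44.97, 47.26 and 44.88 CPM in the combination and 51.0, 53.3 and 45.6 CPM with XL413. It had 43.6, 42.5 and 44.4 CPM with OF1 and 48.2, 51.1 and 46.4 CPM in DMSO cells. All 3 OF1 libraries lay below every other library. NGFR was higher with XL413 than with OF1 by 0.20 ± 0.05 on the log2 scale (adjusted p = 0.0438), a call that was lost in 9 of the 12 fits with a library left out, where the highest adjusted p was 0.198. Against DMSO, OF1 gave -0.16 ± 0.05 (adjusted p = 0.187) and the combination -0.09 ± 0.05 (adjusted p = 0.341). XL413 alone gave 0.04 ± 0.05 (adjusted p = 0.753).

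Of the 14 listed ligands of these receptors 11 were tested, and TGFA and BDNF were the members that passed. Against DMSO the combination called 1 of the 11 higher and 1 lower, XL413 called 0, and OF1 1 higher. Of all tested genes 10.7%, 2.8% and 1.15% passed in these comparisons. TGFA, an EGFR ligand, was by far the most abundant, with a mean of 214 CPM over the 12 libraries. It rose to 226 ± 3.36 CPM in the combination (0.20 ± 0.03, adjusted p = 0.000924) and 224 ± 5.17 CPM with OF1 (0.19 ± 0.03, adjusted p = 0.00692), against 196 ± 2.55 CPM in DMSO cells, and was 208 ± 4.92 CPM with XL413 (0.08 ± 0.03, adjusted p = 0.175). BDNF, a neurotrophin that binds NGFR and TrkB, fell in the combination to 10.7 ± 0.475 CPM against 12.8 ± 0.677 CPM in DMSO cells (-0.25 ± 0.07, adjusted p = 0.0341). The TGFA call with OF1 was lost without DMSO replicate 1, DMSO replicate 2 or OF1 replicate 2, and the list's count in the combination was 1 with combination replicate 1 alone and without DMSO replicate 1, DMSO replicate 2 or combination replicate 2. GAS6 and PROS1, the ligands of the TAM receptors, averaged 17.2 and 13.6 CPM and did not pass with XL413 (0.18 ± 0.08, adjusted p = 0.229, and 0.22 ± 0.09, adjusted p = 0.198). Among the other tested ligands, the mean level was 34.8 CPM for HBEGF, 8.25 for AREG, 3.19 for PDGFD, 3.10 for PDGFB, 1.81 for EGF and 0.302 for BTC, and EREG, NTF3 and NTF4 were too low to be tested.

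Of 16 listed partner receptors 13 were tested and edgeR called 0 against DMSO in any treatment. Of all tested genes it called 10.7% in the combination, 2.8% with XL413 and 1.15% with OF1. At an unadjusted p under 0.05 there were 2 of the 13 in the combination, 3 with XL413 and 2 with OF1. At that level were 3931, 2851 and 2209 of all 15353 tested genes. DESeq2 called 1 of the 13, with OF1. ERBB3, the kinase-impaired partner of ERBB2, was the most abundant with a mean of 199.9 CPM, followed by the WNT co-receptor RYK (66.7), ERBB2 (46.7), the TAM receptor TYRO3 (43.8), the NGFR co-receptor SORT1 (38.0), FZD2 (34.0), FZD7 (20.7) and ROR1 (10.3), a WNT5A receptor. FZD5 (6.01), PDGFRA (4.89), NTRK2 (0.784) and the TAM receptor MERTK (0.328) were lower. Between XL413 and OF1 cells, TYRO3 (0.18 ± 0.04, adjusted p = 0.0213) and FZD2 (0.24 ± 0.05, adjusted p = 0.0139) were higher with XL413, and FZD5 was lower (-0.41 ± 0.11, adjusted p = 0.0417). These were 2 higher and 1 lower of the 13, beside 6.45% of all tested genes. With a library left out, the calls were lost in 5, 3 and 7 of 12 fits for TYRO3, FZD2 and FZD5. All 3 were lost without OF1 replicate 1, OF1 replicate 2 or XL413 replicate 2, with adjusted p up to 0.0875, 0.0746 and 0.151.

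Among 7 tested adaptors and inhibitors of receptor kinases, 2 moved in opposite directions. The combination and XL413 each called 1 of the 7 higher and 1 lower against DMSO, and OF1 1 lower. Of all tested genes 10.7%, 2.8% and 1.15% passed in these comparisons. ERRFI1, a feedback inhibitor that binds the EGFR kinase domain, rose to 254 ± 10.9 CPM in the combination (0.30 ± 0.04, adjusted p = 0.000282) and 251 ± 2.74 CPM with XL413 (0.28 ± 0.04, adjusted p = 0.00154), against 207 ± 9.28 CPM in DMSO cells. CAV1, the caveolar coat protein, fell to 357 ± 7.06 CPM in the combination (-0.45 ± 0.03, adjusted p = 4.69e-07), 451 ± 7.89 CPM with XL413 (-0.11 ± 0.03, adjusted p = 0.0496) and 399 ± 2.03 CPM with OF1 (-0.28 ± 0.03, adjusted p = 0.000131), against 486 ± 5.34 CPM in DMSO cells. LRIG1, CBL, GRB2, SOS1 and SHC1 did not pass against DMSO. The CAV1 call with XL413 was lost in 9 of 12 fits with a library left out (adjusted p up to 0.19), while those of CAV1 in the combination and with OF1, and of ERRFI1 in the combination and with XL413, held in all 12.

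WNT5A (chromosome 3, 55465715 to 55505263), the secreted WNT that drives non-canonical signalling and melanoma motility, had 42.7 ± 3.61 CPM in the combination and 43.0 ± 1.41 CPM with XL413. It had 46.5 ± 4.18 CPM with OF1 and 43.1 ± 2.04 CPM in DMSO cells. Its groups overlapped in all 6 pairs. The log2 fold change with XL413 was -0.0045, with a 95% interval of -0.15 to 0.14 (adjusted p = 0.981), that of the combination was -0.015 (-0.16 to 0.13, adjusted p = 0.921, and 0.097 with combination replicate 1 alone), and that of OF1 was 0.11 (-0.03 to 0.25, adjusted p = 0.488).

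NT5E (chromosome 6, 85450083 to 85495784) encodes CD73, the surface enzyme that makes adenosine from AMP. It had 82.7, 76.8 and 76.0 CPM in the combination, 73.0, 73.8 and 79.3 CPM with XL413, 78.4, 79.5 and 79.5 CPM with OF1, and 71.1, 77.3 and 71.0 CPM in DMSO cells. The OF1 libraries were close to each other and all above the DMSO libraries, whereas the other groups overlapped with DMSO. The change with OF1 was 0.11 ± 0.05 (adjusted p = 0.273) and that of the combination 0.10 ± 0.05 (adjusted p = 0.177), neither of which passed. With combination replicate 1 alone the combination gave 0.18 (adjusted p = 0.0962). Among 9 tested genes of adenosine production, breakdown and sensing, ADK, which phosphorylates adenosine, rose in the combination (0.19 ± 0.04, adjusted p = 0.0156). Of all tested genes 10.7% passed in the combination against DMSO. None of the 9 passed with XL413 or OF1 against DMSO, beside 2.8% and 1.15% of all tested genes, and DESeq2 called 0. There 3 and 1 had an unadjusted p under 0.05, as had 2851 and 2209 of all 15353 tested genes. The ADK call was lost without DMSO replicate 2, DMSO replicate 3 or combination replicate 2, and with combination replicate 1 alone. ENTPD1 (CD39), which supplies AMP to CD73, averaged 48.1 CPM and was lower with XL413 than with OF1 (-0.18 ± 0.05, adjusted p = 0.0489). In that comparison the receptor ADORA1 (0.26 ± 0.07, adjusted p = 0.0318) and the deaminase ADA (0.31 ± 0.08, adjusted p = 0.0365) were higher. That made 2 higher and 1 lower of the 9, beside 6.45% of all tested genes. The ENTPD1, ADORA1 and ADA calls were lost in 10, 5 and 6 of 12 fits with a library left out, each of them without any 1 of the XL413 libraries, with adjusted p up to 0.205, 0.137 and 0.158.

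FOSL1 (chromosome 11, 65892049 to 65900545), which encodes the AP-1 subunit FRA1, had 324, 310 and 335 CPM in the combination and 326, 322 and 315 CPM with XL413. It had 355, 345 and 359 CPM with OF1 and 324, 341 and 350 CPM in DMSO cells. Every library with XL413 lay below every library with OF1 alone, and the DMSO libraries spanned both. FOSL1 was lower with XL413 than with OF1 by a log2 difference of -0.14 ± 0.04 (adjusted p = 0.0409), a call lost in 7 of 12 fits with a library left out, up to an adjusted p of 0.124. The combination against OF1 gave -0.13 ± 0.04 (adjusted p = 0.0543). That comparison passed with a filter at 1 CPM in 3 libraries, by DESeq2 and by limma-voom. It also passed without DMSO replicate 1, combination replicate 1 or combination replicate 3 (edgeR adjusted p down to 0.0346). Against DMSO the values were -0.07 ± 0.04 for the combination (adjusted p = 0.27), -0.07 ± 0.04 for XL413 (adjusted p = 0.295) and 0.06 ± 0.04 for OF1 (adjusted p = 0.477).

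JUN (chromosome 1, 58780791 to 58784047) had 60.8, 65.1 and 68.5 CPM in the combination and 73.0, 74.2 and 70.1 CPM with XL413. It had 64.6, 67.0 and 68.8 CPM with OF1 and 71.7, 75.3 and 72.9 CPM in DMSO cells. The 6 libraries with OF1 were the 6 lowest, the reverse arrangement to AXL, in which those with XL413 were. The combination fell by 0.18 ± 0.05 on the log2 scale against DMSO (adjusted p = 0.0219), or to 0.884 times, and was -0.27 with combination replicate 1 alone (adjusted p = 0.0103). This call was lost without DMSO replicate 2 (-0.16, adjusted p = 0.094), DMSO replicate 3 (-0.19, adjusted p = 0.0589) or combination replicate 2 (-0.18, adjusted p = 0.0557). It was also lost with the mean muscle gene level as a covariate (-0.16, adjusted p = 0.223) and in a fit to these 2 groups alone (adjusted p = 0.0633). OF1 alone gave -0.13 ± 0.05 (adjusted p = 0.177) and XL413 alone -0.017 ± 0.045 (adjusted p = 0.88). The combination against XL413 gave -0.16 ± 0.05 (adjusted p = 0.0675), which passed with combination replicate 1 alone (-0.25, adjusted p = 0.0393) and without combination replicate 3 (adjusted p = 0.0157).

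Of the 9 other AP-1 family genes 1 passed in the combination against DMSO, beside 10.7% of all tested genes. With XL413 and with OF1 0 passed, beside 2.8% and 1.15%. The gene that passed was FOSL2, which encodes FRA2. It fell to 36.6 ± 1.35 CPM in the combination, against 48.3 ± 1.31 CPM in DMSO cells (-0.40 ± 0.05, adjusted p = 9.73e-05), and was 48.6 ± 2.50 CPM with XL413 and 44.3 ± 0.957 CPM with OF1. JUND fell in the combination against XL413 (-0.50 ± 0.12, adjusted p = 0.0351) and against OF1 (-0.47 ± 0.12, adjusted p = 0.0377), with 26.3 ± 3.73 CPM in the combination, 37.1 ± 4.10 CPM with XL413 and 36.3 ± 5.38 CPM with OF1. Both comparisons called 2 of the 9 genes, FOSL2 and JUND, beside 3.41% and 5.5% of all tested genes. The JUND call was lost in 4 of 12 fits with a library left out against XL413 and in 5 of 12 against OF1 (adjusted p up to 0.177 and 0.143). Leaving out DMSO replicate 2, XL413 replicate 2 or combination replicate 2 ended both calls, XL413 replicate 1 ended that against XL413, and OF1 replicate 2 or 3 that against OF1. The mean muscle gene level as a covariate, which overlaps with the combination group, ended the calls of both genes in these comparisons. The edgeR adjusted p against XL413 and OF1 was then 0.995 and 0.998 for JUND, and 0.12 and 0.701 for FOSL2. The FOSL2 call against DMSO held with it (adjusted p = 0.00871). With combination replicate 1 alone, JUND passed in neither comparison and FOSL2 did not pass against OF1 (adjusted p = 0.17), while the FOSL2 call against DMSO held in every fit with a library left out. JUNB averaged 69.2 CPM, MAFF 34.0, MAF 13.1, ATF3 8.35, FOSB 8.16, FOS 3.44 and BATF3 2.58, and none of these passed between any pair of groups.

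SOX9 (chromosome 17, 72121020 to 72126416), a neural crest transcription factor that rises as SOX10 is lost, had 9.04, 7.82 and 8.51 CPM in the combination and 8.13, 8.27 and 8.01 CPM with XL413. It had 11.4, 9.53 and 9.37 CPM with OF1 and 9.05, 11 and 9.95 CPM in DMSO cells. As with AXL, the 6 libraries with XL413 were the 6 lowest, although combination replicate 1 and DMSO replicate 1 nearly met. The log2 fold changes were of the size seen for AXL but with larger errors, at -0.30 ± 0.09 for XL413 against DMSO (adjusted p = 0.101), -0.24 ± 0.09 for the combination against DMSO (adjusted p = 0.11), -0.26 ± 0.09 for the combination against OF1 (adjusted p = 0.117) and -0.31 ± 0.09 for XL413 against OF1 (adjusted p = 0.0607). None passed. With combination replicate 1 alone the combination gave -0.15 against DMSO and -0.16 against OF1, and XL413 against OF1 then passed (-0.31, adjusted p = 0.0494).

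ZEB1 (chromosome 10, 31318417 to 31529804), a repressor that binds E-boxes and drives epithelial to mesenchymal transition, had 42.5, 39.6 and 38.2 CPM in the combination and 37.5, 35.1 and 39.2 CPM with XL413. It had 42.2, 44.1 and 44.7 CPM with OF1 and 39.8, 40.6 and 40.8 CPM in DMSO cells. The XL413 libraries lay below and the OF1 libraries above those of DMSO, and the combination libraries spanned the DMSO range. ZEB1 was lower with XL413 than with OF1, by -0.23 ± 0.05 on the log2 scale (adjusted p = 0.0144), a call lost without OF1 replicate 2 (-0.22, adjusted p = 0.0609) or XL413 replicate 2 (-0.19, adjusted p = 0.0834). Against DMSO the values were -0.010 for the combination (adjusted p = 0.925, and 0.07 with combination replicate 1 alone), -0.11 ± 0.05 for XL413 (adjusted p = 0.23) and 0.11 ± 0.05 for OF1 (adjusted p = 0.298). ZEB1 shares 366 exonic bases with the antisense gene ZEB1-AS1.

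None of 8 other transcription factors of this transition passed against DMSO. Of all tested genes 10.7% passed in the combination, 2.8% with XL413 and 1.15% with OF1. At an unadjusted p under 0.05 there were 2 of the 8 in the combination, 2 with XL413 and 3 with OF1. At that level were 3931, 2851 and 2209 of all 15353 tested genes. DESeq2 called 1 of the 8, with OF1. SOX10, which is on that list for its loss in dedifferentiation, averaged 348 CPM, PRRX1 27.6, ZEB2 21.2, SNAI1 13.4, TWIST1 12.4, TCF4 11.1, TWIST2 5.73 and SNAI2 1.81. TWIST2 was higher with XL413 than with OF1 (0.37 ± 0.09, adjusted p = 0.0306), a call lost without OF1 replicate 1, OF1 replicate 2 or any 1 of the XL413 libraries (adjusted p up to 0.13). It was the 1 call of the 8 in that comparison, beside 6.45% of all tested genes. The smallest p against DMSO was that of ZEB2 in the combination (-0.22 ± 0.07, adjusted p = 0.0679), of TWIST1 with XL413 (0.24 ± 0.07, adjusted p = 0.0828) and of PRRX1 with OF1 (0.25 ± 0.07, adjusted p = 0.113).

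Counted together, 2 of the 10 genes passed in the combination against DMSO, both lower, where 10.7% of all tested genes passed. With XL413 the count was 1 of 10, beside 2.8% of all genes, and with OF1 0 of 10, beside 1.15%. At an unadjusted p under 0.05 the OF1 comparison held 4 of the 10, namely NGFR, NT5E, JUN and ZEB1, beside 2209 of all 15353 tested genes. DESeq2 and limma-voom also called 0 of the 10 there. The combination against XL413 gave 0 of 10 (3.41% of all genes), with 1 call by DESeq2. JUN, PDGFRB and NGFR were under 0.05 there before adjustment, as were 2584 of the 15353 tested genes. The combination against OF1 gave 1 of 10 (5.5%). XL413 against OF1 separated the most members, with 4 of 10 (6.45% of all genes), AXL, FOSL1 and ZEB1 lower and NGFR higher with XL413. That count was 1, AXL, without OF1 replicate 2 or without XL413 replicate 2. In the test of any difference among the 4 groups 3 of 10 passed, AXL (adjusted p = 0.000226), JUN (0.0316) and ZEB1 (0.0342), where 12.6% of all genes did. The AXL call held in all 12 fits with a library left out, while that of JUN was lost in 6 and that of ZEB1 in 8. Both were also lost with the mean muscle gene level as a covariate (adjusted p = 0.107 for JUN and 0.0646 for ZEB1).

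Libraries that did not overlap were a looser measure. In the combination they separated 4 of 10 members from DMSO (27.6% of all genes), with EGFR higher and AXL, JUN and SOX9 lower. With XL413 they separated 3 of 10 (27.8%), all lower, and with OF1 4 of 10 (22%), NT5E and ZEB1 higher and NGFR and JUN lower. The combination stood clear of XL413 for 2 of 10 (19.4%) and of OF1 for 4 of 10 (22.5%). XL413 stood clear of OF1 for 7 of 10 (28.6%). The members' median log2 fold change against DMSO was -0.078 in the combination, -0.011 with XL413 and 0.032 with OF1, beside medians over all tested genes of -0.0018, 0 and 0.0041 in the same 3 comparisons.

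**Figure D2:**
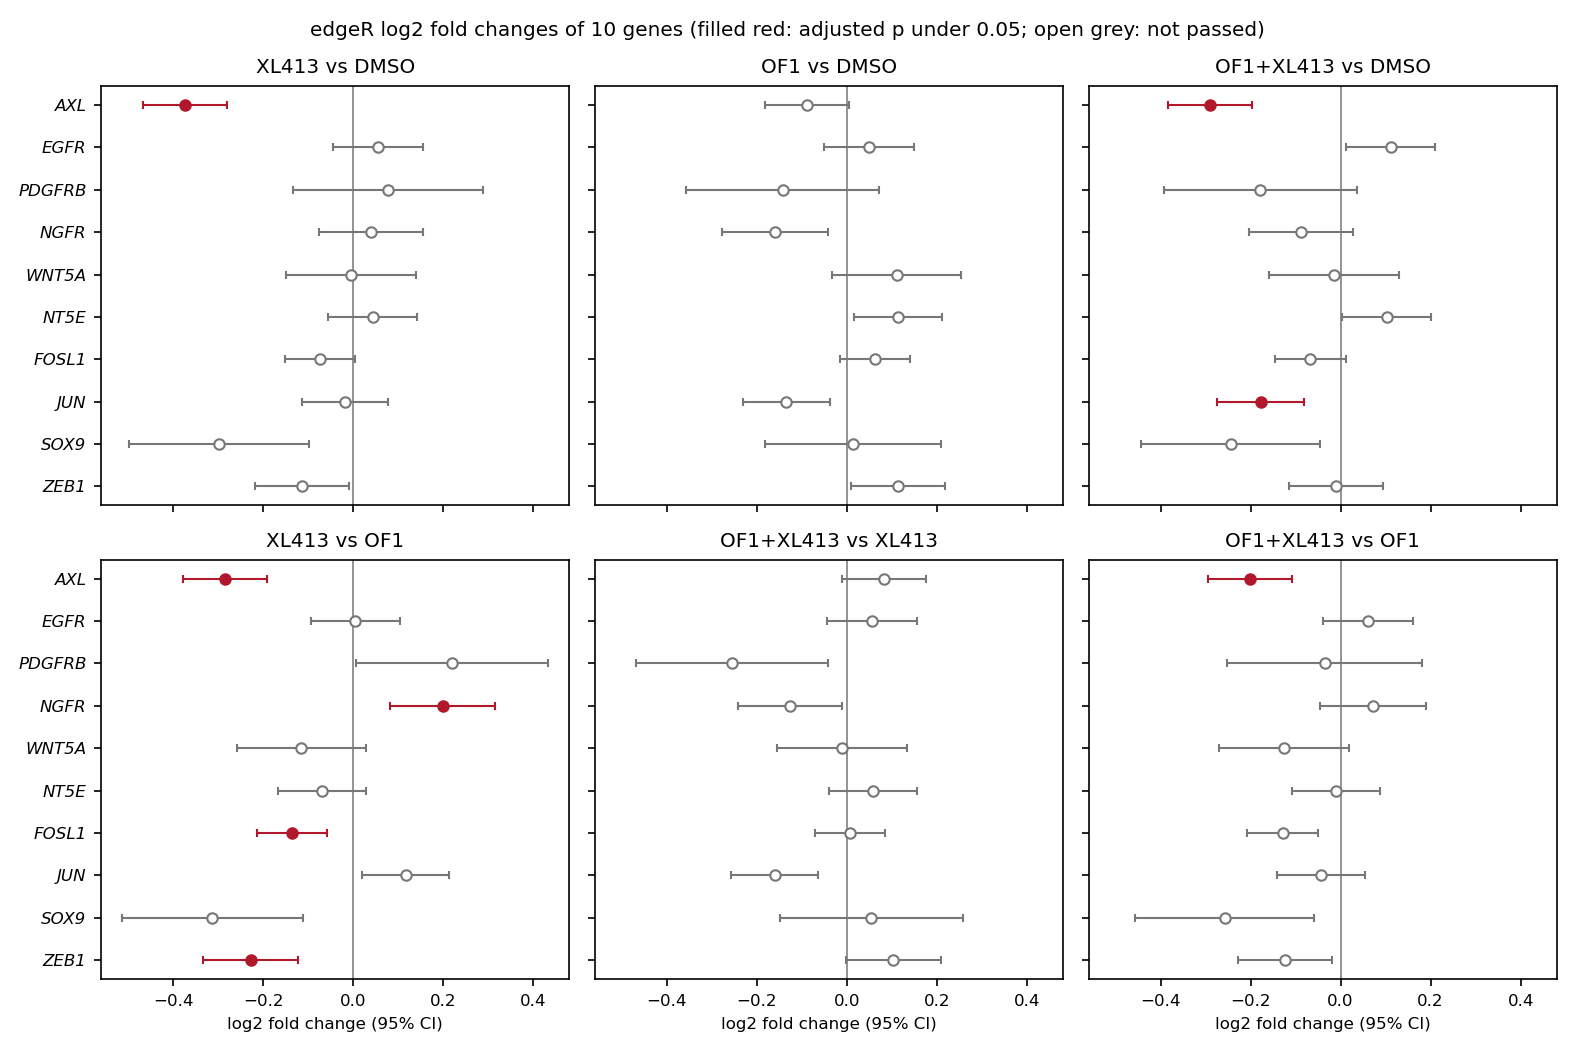
log2 fold change with its 95% confidence interval (horizontal axis) of the 10 genes in the 6 comparisons between groups, with filled red points for an adjusted p under 0.05. AXL passed in 4 panels, JUN, FOSL1, ZEB1 and NGFR in 1 each, and XL413 against OF1 held 4 of the 8 calls.

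Each inhibitor was measured in 2 comparisons that share no library, with and without the other inhibitor. For XL413 these were XL413 against DMSO and the combination against OF1, and the members' changes were AXL -0.37 and -0.20, SOX9 -0.30 and -0.26, ZEB1 -0.11 and -0.12, and FOSL1 -0.07 and -0.13. NGFR (0.04 and 0.07), EGFR (0.06 and 0.06), NT5E (0.04 and -0.011), PDGFRB (0.08 and -0.04), JUN (-0.017 and -0.044) and WNT5A (-0.0045 and -0.13) completed the 10. For OF1, as OF1 against DMSO and the combination against XL413, the lower values were JUN -0.13 and -0.16, NGFR -0.16 and -0.13, and PDGFRB -0.14 and -0.26. ZEB1 (0.11 and 0.10), NT5E (0.11 and 0.06), EGFR (0.05 and 0.06), FOSL1 (0.062 and 0.0070), SOX9 (0.014 and 0.055) and WNT5A (0.11 and -0.010) lay between -0.010 and 0.11, and AXL changed sign (-0.09 and 0.08).

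**Figure D3:**
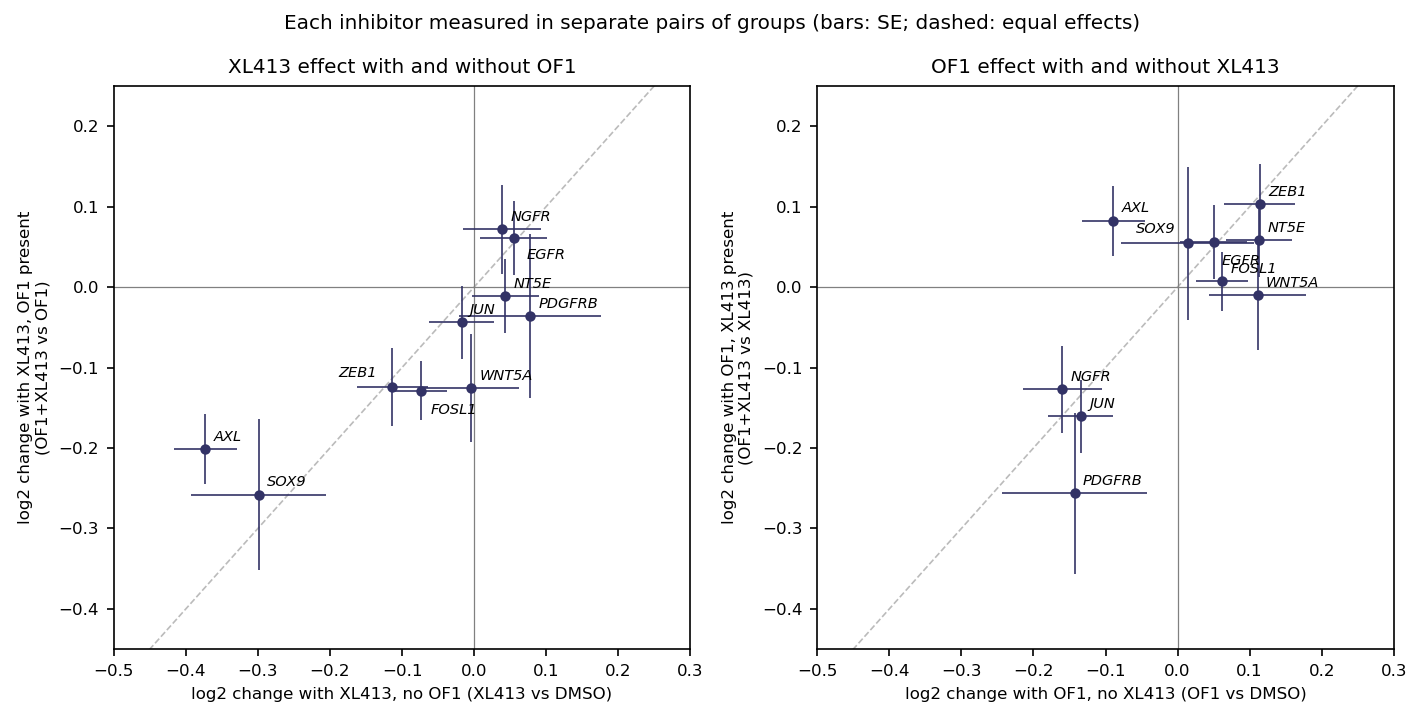
Left, log2 change with XL413 when OF1 was absent (horizontal axis) and present (vertical axis), and right, the same for OF1 without and with XL413, for the 10 genes, with SE bars and a dashed line of equal change. AXL and SOX9 lay lowest on both axes for XL413, and JUN, NGFR and PDGFRB for OF1.

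The mean of each such pair was tested in the same fit, a contrast added after the members' values had been seen. The average XL413 effect passed for 4 of 10 members, all lower, where 12% of all genes passed. These were AXL (-0.29 ± 0.03, adjusted p = 7.4e-05), SOX9 (-0.28 ± 0.07, adjusted p = 0.0153), FOSL1 (-0.10 ± 0.03, adjusted p = 0.0208) and ZEB1 (-0.12 ± 0.03, adjusted p = 0.0381). The average OF1 effect passed for 2 of 10, beside 4.94% of all genes, namely JUN (-0.15 ± 0.03, adjusted p = 0.016) and NGFR (-0.14 ± 0.04, adjusted p = 0.0455). With combination replicate 1 alone, SOX9 (-0.23, adjusted p = 0.12), ZEB1 (-0.08, adjusted p = 0.266) and NGFR (adjusted p = 0.0618) no longer passed, and ZEB1 newly passed as higher in the average OF1 effect (0.15, adjusted p = 0.0286), as it also did without combination replicate 3 (adjusted p = 0.0442). With the mean muscle gene level as a covariate, AXL alone of these 6 calls remained. That level overlaps with the combination group, as given above, and why the other calls were lost was not tested. Leaving out 1 library ended the calls of ZEB1 in 9, of FOSL1 in 4, of NGFR in 11 and of JUN in 1 of 12 fits, the last without DMSO replicate 2 (-0.14, adjusted p = 0.0502).

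The combination was also set against the sum of the 2 single changes, which tests whether the inhibitors departed from additivity on the log2 scale. None of the 10 genes passed, and 0% of all tested genes did in edgeR, although 1566 genes had an unadjusted p under 0.05 and DESeq2 called 109. AXL had the smallest p of the members, 0.0144 before adjustment, with a departure of 0.17 ± 0.06 (adjusted p = 0.323) and a 95% interval of 0.04 to 0.30. The intervals of the other members all held 0, and DESeq2 and limma-voom called 0 of the 10.

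A wider list of 40 invasive-state genes and a list of 27 differentiation genes, 18 of them tested, put the members beside the programmes they mark. In the combination against DMSO 7 of 40 invasive genes passed, 6 lower and 1 higher, beside 10.7% of all tested genes, with a list median of -0.06. The lower ones were CAV1 (-0.45 ± 0.03), the WNT inhibitor DKK1 (-0.20 ± 0.04, adjusted p = 0.00396), the ephrin receptor EPHA2 (-0.18 ± 0.04, adjusted p = 0.00782), BDNF, the matrix protein FN1 (-0.80 ± 0.23, adjusted p = 0.0344) and TEAD4 (-0.15 ± 0.04, adjusted p = 0.0368), a DNA-binding partner of YAP. The urokinase receptor PLAUR was the higher one (edgeR adjusted p = 0.0404), a call lost in 9 of 12 fits with a library left out. FN1 is also made by fibroblasts, and 9 of the 12 fibroblast genes fell in the same comparison, among them COL1A1 and THY1, as did 6 of 33 tested muscle fibre genes. Their part in the invasive counts was not tested, apart from the muscle covariate, which overlaps with the combination group. With combination replicate 1 alone BDNF, FN1, TEAD4 and PLAUR no longer passed. With the mean muscle gene level as a covariate 1 invasive gene passed, CAV1. The count was 3 without DMSO replicate 1, DMSO replicate 2 or combination replicate 2 in turn, and 4 without DMSO replicate 3. The calls of CAV1, DKK1 and EPHA2 held in all 12 fits with a library left out. Those of FN1 and TEAD4 were lost in 5 each and that of BDNF in 3.

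With XL413 5 of 40 invasive genes passed, beside 2.8% of all tested genes, DKK1 (-0.22 ± 0.04, adjusted p = 0.00805), AMIGO2 and CAV1 lower, and TGFBI (0.28 ± 0.05, adjusted p = 0.00925) and SERPINE2 (0.16 ± 0.03, adjusted p = 0.0102) higher. With OF1 2 passed, beside 1.15% of all tested genes, CAV1 and the collagen cross-linker LOXL2 (-0.20 ± 0.04, adjusted p = 0.0224), both lower. These counts ran from 1 to 6 with XL413 and from 1 to 4 with OF1 when a library was left out, and were 1 with XL413 without XL413 replicate 2 or 3. The list medians were -0.0044 with XL413 and -0.017 with OF1. Of the differentiation genes, none passed with either inhibitor alone, where 3 each had an unadjusted p under 0.05 and DESeq2 called 1 each. At that unadjusted level were 2851 and 2209 of all 15353 tested genes with XL413 and OF1. The combination called 2 of the 18 tested differentiation genes higher and 1 lower, beside 10.7% of all tested genes. In the combination MITF fell (-0.33 ± 0.05, adjusted p = 0.00173), while RAB38, which acts in melanosome transport (0.36 ± 0.07, adjusted p = 0.00479), and BCL2A1, a survival gene (0.79 ± 0.22, adjusted p = 0.0325), rose. AXL and MITF, the genes that name the opposite ends of this axis, were both lower in the combination than in DMSO cells. The MITF call held in all 12 fits with a library left out, with combination replicate 1 alone (adjusted p = 0.0306) and with the mean muscle gene level as a covariate (adjusted p = 0.0288). RAB38 and BCL2A1 passed in neither of the last pair of fits, and BCL2A1 was lost in 4 of 12 fits with a library left out.

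**Figure D4:**
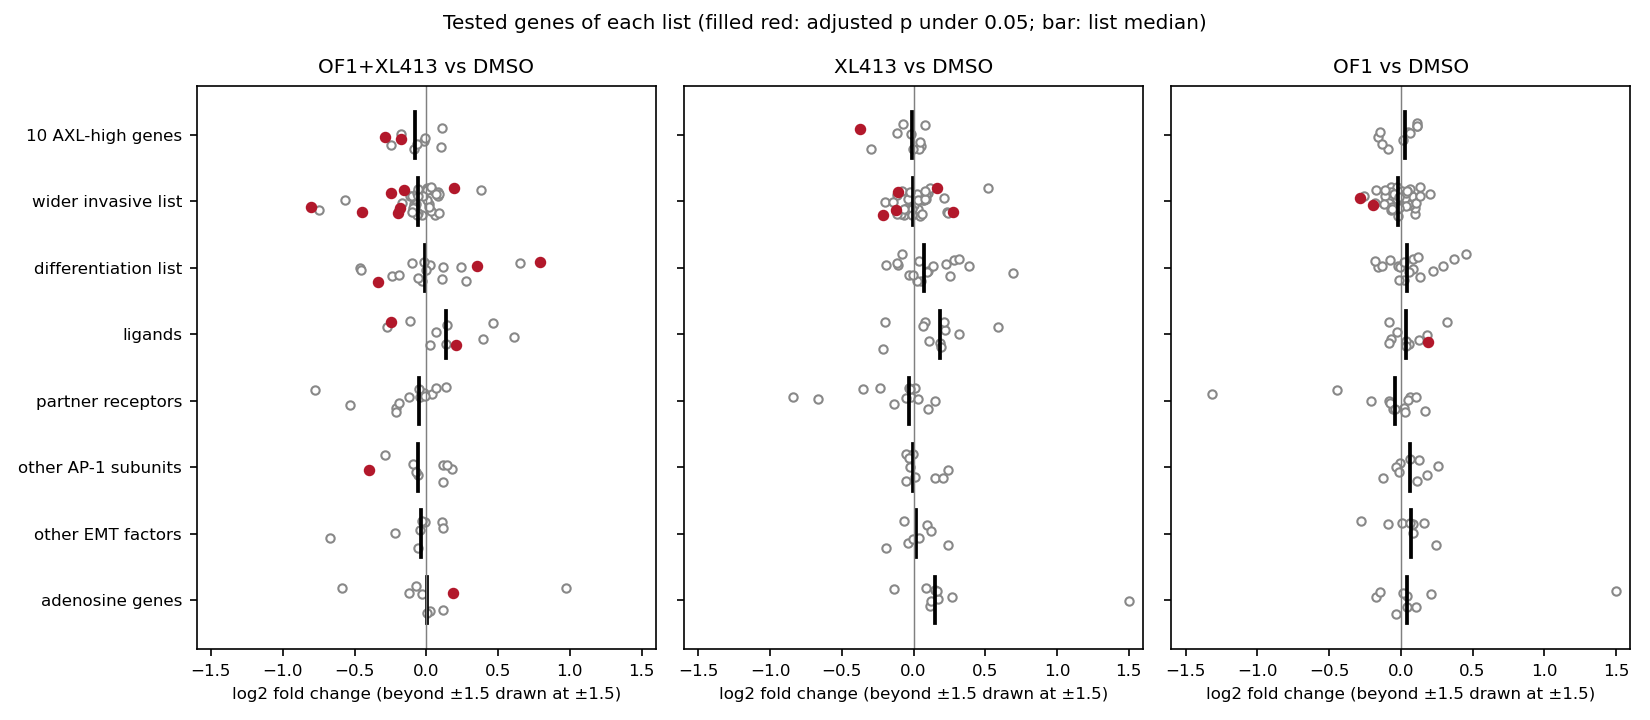
log2 fold change against DMSO (horizontal axis, values beyond 1.5 in either direction drawn at the edge) of each tested gene in 8 lists, for the combination, XL413 and OF1, with filled red points for an adjusted p under 0.05 and bars at list medians. Each list had both higher and lower genes, and 2, 1 and 0 of the 10 AXL-high genes passed in the 3 panels.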

How the data were processed

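Poly(A) RNA of A375 cells was sequenced in 12 libraries, 3 for each of 4 groups, with strand kept through dUTP, per the labels' protocols. The deposited values are the authors' expected counts for each gene symbol, estimates of reads that were not scaled between libraries. The submitters' processing notes name Bowtie2 2.1.0, RSEM 1.2.15 and hg38. Which annotation was used, and whether counting used strand, is not given in the sources used here. Non-whole values made up 10.6% of the table, and every value was rounded. Totals ran from 30499559 to 36062138, with a median of 33319779.

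edgeR 4.0.16 (R 4.3.3) was run on the 15353 genes passing filterByExpr, with TMM factors and 1 mean per group over all 12 libraries. Each contrast used the quasi-likelihood F test, and p-values were adjusted over all tested genes by the Benjamini-Hochberg method, with 0.05 as the threshold. The SE is the absolute log2 fold change over the square root of F, and intervals are at 95%. Non-additivity is the combination minus XL413 minus OF1 plus DMSO on the log2 scale. The average effects of each inhibitor were added after the members' values were seen. CPM values were scaled by TMM library size.

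The members and lists were chosen with earlier results of these data known. Named genes are all members, every tested ligand, partner receptor, AP-1 gene and transition factor by mean level, up to 6 called genes of smallest p in the wider lists, and otherwise the gene of smallest p where a list has no call. Genes passing in the other lists were also named. A few listed genes are not reported here. Alternatives were RLE and upper-quartile factors, no filter, a filter at 1 CPM in 3 libraries, DESeq2 1.42.0, limma-voom (limma 3.58.1), a replicate block, the compared groups alone, the mean log2 CPM of the muscle list as a covariate, combination replicate 1 alone, and leaving out each library. In data simulated for XL413 against DMSO over 15353 genes, calls were made for 43.3% of genes set to a 1.2-fold change, 69.3% at 1.3-fold, 77.3% at 1.5-fold and 95.3% at 2-fold (150 genes each over 3 runs), with 31 false calls among 45017 unchanged genes. The chi-square statistic over its degrees of freedom was 2.29 to 13.2 between libraries of a group, above counting noise, so none was treated as a repeat. Positions and promoter windows are from RefSeq, GRCh38.p14, and exon lengths from GENCODE v29. No per-sample column was left unused.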

Additional observations from a re-analysis of the deposited data

How the results depend on the processing

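Of 2160 values of the 10 genes under the alternatives, 2050 stayed on their side of the threshold, 29 newly passed and 81 no longer passed. Of the 1950 values with a direction 67 changed sign, none of them past the threshold in either fit. The number of members called in XL413 against DMSO was 2 in a fit to the compared groups alone. For the combination against DMSO it was 1 in that fit and 1 with the muscle covariate. For the combination against XL413 it was 1 by DESeq2 and 1 with combination replicate 1 alone. Against OF1 it was 2 with the CPM filter, DESeq2 or limma-voom, and 0 with the compared groups alone, the muscle covariate or combination replicate 1 alone. The average XL413 effect gave 1 with the muscle covariate and 2 with combination replicate 1 alone, the average OF1 effect 1 by limma-voom and 0 with the muscle covariate, and any difference 5 with no filter, 6 by DESeq2 and 1 with the muscle covariate. Leaving out 1 library gave 1 to 1 members for XL413 against DMSO, 0 to 0 for OF1 against DMSO, 1 to 2 for the combination against DMSO, 0 to 1 against XL413 and 0 to 3 against OF1. It gave 1 to 4 for XL413 against OF1, 0 to 0 for non-additivity, 2 to 4 and 0 to 2 for the average XL413 and OF1 effects, and 1 to 5 for any difference. Over all genes the fit to the compared groups alone called 1394 for XL413 against DMSO (430 in the fit to all 12 libraries), 878 for the combination against DMSO (1645) and 120 for the combination against OF1 (845). The muscle covariate called 176 for XL413 and 62 for OF1 against DMSO (176 without it), 303 for the combination against DMSO, 33 against XL413 (524) and 9 against OF1. It called 500 and 306 for the average XL413 and OF1 effects (1845 and 759) and 812 for any difference (1941). Combination replicate 1 alone gave 848, 414 and 857 for XL413, OF1 and the combination against DMSO. It gave 155 and 53 for the combination against XL413 and OF1, 1608 for XL413 against OF1 (990), 1 for non-additivity and 951 for the average XL413 effect. DESeq2 called 357 genes for OF1 against DMSO, of which 38.4% were higher against 50.6% by edgeR, and 109 for non-additivity, where no filter gave 132. Leave-one-out ranges over all genes were 86 to 722 and 42 to 388 for XL413 and OF1 against DMSO, 728 to 2113 for the combination, 168 to 828 and 212 to 2227 for the combination against XL413 and OF1, 340 to 1434 for XL413 against OF1, 0 to 362 for non-additivity, 1050 to 2903 and 412 to 1117 for the average effects, and 1046 to 3102 for any difference. The cause was not tested. Replicate numbers did not pair the libraries: 1 of 18 same-numbered pairs had a correlation above 0.1 (range -0.161 to 0.199) and 3 of 12 libraries correlated best with their own number. With replicate as a block no member's call changed, and the counts over all genes were 361, 126 and 1573 for XL413, OF1 and the combination against DMSO, and 2 for non-additivity. The lowest counts were 259 for SOX9 and 310 for PDGFRB, whose spread within groups was also the widest of the 10 genes.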
